A study of Mus musculus with 6 samples.

Results

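The liver takes in, stores and releases iron, and makes the hormone that sets how much iron enters the blood. The genes described here are Hamp (hepcidin), Lcn2 (lipocalin 2), Steap4 (a metalloreductase), Cp (ceruloplasmin), Trf (transferrin), Tfrc and Tfr2 (the transferrin receptors), Fth1 and Ftl1 (the ferritin subunits) and Hfe2 (hemojuvelin). They were found as the array targets, called rows below, whose gene description names them. The rule gave 17 rows of 44170, for 9 of the 10 genes. No row was matched to Hfe2, so hemojuvelin was not analysed here. Cp had 5 rows, Tfr2 had 3, Tfrc and Ftl1 had 2 each, and the other genes had 1; a gene with several rows is led by the one that was brightest on average over the 6 arrays.

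Liver RNA of 6 mice was hybridised to 6 single-colour NimbleGen expression arrays, 1 mouse per array. All were wild-type C57 BL/6 males aged 9 to 10 weeks. The LPS group (n = 3) received 0.01 µg of LPS, a component of the bacterial cell wall that is sensed by the receptor Tlr4. The LPS/GalN group (n = 3) received 0.01 µg of LPS together with 20 mg of D-galactosamine (GalN, which depletes uridine nucleotides in hepatocytes and makes the liver sensitive to LPS). Both groups were treated for 2.5 h, and the labels describe the replicates as separate treatments. LPS was thus common to both groups. Neither untreated animals nor animals with GalN only were analysed here. A lower level in LPS/GalN therefore cannot be divided between less induction by LPS and loss of a transcript already present. The question of the comparison was how the addition of GalN changes these transcripts in livers that received the same dose of LPS.

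Hepcidin is a peptide that hepatocytes secrete; it binds the iron exporter ferroportin (Slc40a1) and has it degraded, so that iron stays in macrophages, hepatocytes and gut cells. Hamp transcription is driven by iron through bone morphogenetic protein (BMP) receptors and Smad proteins, and by inflammation through interleukin 6 and Stat3. In an acute phase response the liver also makes lipocalin 2, which binds bacterial siderophores, the small molecules with which bacteria capture iron, and ceruloplasmin, a copper ferroxidase that oxidises iron for loading onto transferrin. Steap4 reduces iron and copper at membranes and is induced by inflammatory signals. Ferritin stores iron inside cells, and the levels of ferritin and of the first transferrin receptor are set largely after transcription by iron regulatory proteins.

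The 250 bases before the transcription start are shown for Hamp, for its neighbouring paralog Hamp2 and for Steap4. They are shown because Hamp and Steap4 fell in LPS/GalN and Hamp2 did not pass the test. Lcn2 and 2 rows of Cp fell too, and their windows, which held no match to any motif searched here, are not printed. The printed windows are thus a chosen subset, and whether the motifs bear on the differences was not tested. The sequences and their positions are from RefSeq on build GRCm38.p6. They lie at chr7:30944030-30944279 on the minus strand (Hamp), chr7:30924182-30924431 on the minus strand (Hamp2) and chr5:7960222-7960471 on the plus strand (Steap4). They are written 5′ to 3′ in the direction of transcription, and capitals mark matches to GGCGCC, the core of the BMP response element, and to TTCNNNGAA, the consensus bound by STAT proteins.
Hamp: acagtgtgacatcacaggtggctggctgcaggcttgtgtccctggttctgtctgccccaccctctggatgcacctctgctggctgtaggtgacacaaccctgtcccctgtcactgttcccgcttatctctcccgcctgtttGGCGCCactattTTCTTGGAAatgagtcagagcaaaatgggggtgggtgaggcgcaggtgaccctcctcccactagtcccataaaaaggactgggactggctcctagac
Hamp2: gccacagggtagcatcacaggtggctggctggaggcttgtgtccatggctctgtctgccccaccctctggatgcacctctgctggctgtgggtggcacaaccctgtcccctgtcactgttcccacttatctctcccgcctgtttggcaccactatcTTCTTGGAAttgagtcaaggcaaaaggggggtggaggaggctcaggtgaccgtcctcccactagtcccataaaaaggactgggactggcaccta
Steap4: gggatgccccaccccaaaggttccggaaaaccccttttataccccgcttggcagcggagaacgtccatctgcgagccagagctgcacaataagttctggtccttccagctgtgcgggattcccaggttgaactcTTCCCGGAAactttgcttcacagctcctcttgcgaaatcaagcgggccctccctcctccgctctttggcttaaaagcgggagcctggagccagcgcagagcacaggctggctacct
The Hamp promoter held GGCGCC at -109 to -104 and TTCTTGGAA at -97 to -89, counted back from the base before the start. The Hamp2 promoter held TTCTTGGAA at -94 to -86 and no GGCGCC. In the alignment of the Hamp and Hamp2 windows, 227 of 247 aligned bases (91.9%) were identical, and the box aligned to GGCGCC carried the substitution G4A, counted from 1 at the 5′ end of the box in Hamp. The Steap4 promoter held TTCCCGGAA at -116 to -108.

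Each motif was searched on both strands in the 32851 promoters of the table. TTCNNNGAA was found in 7.02% of them, its narrower form TTCNNGGAA, which is contained in it and was matched by all 3 of the boxes above, in 4.06%, and GGCGCC in 9.59%. Hamp was 1 of 121 promoters (0.368%) with both TTCNNNGAA and GGCGCC. Promoter entries were matched for 8 of the 10 genes, 13 entries in all. Apart from Hamp and Steap4, none of these entries held TTCNNNGAA, and GGCGCC was found in Tfrc alone apart from Hamp. A consensus for NF-kB, found in 7.25% of all promoters, matched in entries of Steap4, Tfr2 and Ftl1. The Lcn2 window held none of the motifs, which says only that these letters are not in its 250 bases. CACGTG (the E box), TTGCGCAA (the palindrome bound by C/EBP proteins) and a second C/EBP consensus, found in 6.02%, 0.164% and 0.0578% of all promoters, matched in no entry of these genes. These are matches of letters, and binding was not measured.

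Values are log2 of the RMA intensity that the authors deposited, and differences are LPS/GalN minus LPS. They were tested with limma over all 44170 rows, with Benjamini-Hochberg adjustment, and a row with an adjusted p under 0.05 is called higher or lower. Array medians were 60.35 to 63.11 on the linear scale, and the background row of 5000 random probes read 31.31 to 34.70. All 17 rows were above that background on all 6 arrays. In 6 of the 17 rows a group mean was above a log2 of 15, which only 163 rows of the arrays reached as a mean over all arrays. Near this top of the scale differences can be compressed, so a fold there may be too small. A small difference there is not evidence of equal levels.

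Markers of other tissues stood apart on some arrays. The summed intensity of 8 intestinal markers was 27029 and 28788 on LPS replicates 1 and 2, against 2247 on LPS replicate 3 and 1791 to 2158 in LPS/GalN. The summed intensity of 6 measured thymus markers was 8077 and 4509 on LPS/GalN replicates 2 and 3, against 311 to 501 in LPS and 327 on LPS/GalN replicate 1; 1 of the 6 was above background on all arrays. Hepatocyte markers (Alb, Apoa1, Ttr, Cps1, Cyp2e1 and Tat) summed to 247740 to 277767 in LPS and 244655 to 265124 in LPS/GalN, ranges that overlap, and 0 of the 6 was called (adjusted p 0.669 to 0.999). All of them but Tat had a group mean above log2 15, where differences can be compressed. The overlap is therefore not evidence of equal hepatocyte content. Without LPS replicates 1 and 2, Hamp differed by -2.41, Lcn2 by -4.60 and Steap4 by -4.15 (adjusted p = 0.192, 0.31 and 0.0529), in a fit of 1 array against 3 that called 0 of all 44170 rows. Without LPS/GalN replicates 2 and 3, Hamp differed by -2.12, Lcn2 by -2.77 and Steap4 by -4.09 (adjusted p = 0.0997, 0.028 and 0.017). Rows 2 and 4 of Cp differed by -3.19 and -3.06 without the LPS pair (adjusted p = 0.249 and 0.0597), and by -1.97 and -2.89 without the LPS/GalN pair (0.175 and 0.11). In both of these fits the lone array is assumed to vary like the arrays of the other group. The labelled tissue is whole liver, so fewer cells of a type and less RNA per cell cannot be told apart.

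For 4 of the genes, rows fell in LPS/GalN. Hamp, Lcn2 and Steap4 were lower by 6.5-fold, 23.4-fold and 18.2-fold, and 2 of the 5 Cp rows were lower by 8.95-fold and 7.93-fold. The Lcn2 fold may be compressed, and it is imprecise (95% interval of the log2 difference -6.34 to -2.76). Steap4 and Hamp had LPS means of 14.74 and 14.43, not far below log2 15, so some compression of their folds is possible too. The rows of Trf, Tfrc, Tfr2, Fth1 and Ftl1, which encode transferrin, its receptors and the ferritin subunits, did not pass the test in either direction. In all, 5 of the 17 rows were lower, 0 were higher and 12 were not called. Over all rows tested, 3.13% were lower, 0.654% were higher and 3.78% were called in either direction. At an unadjusted p under 0.05, 7 of the 17 rows were lower and 0 were higher, against 9.13% and 8.39% of all rows. The groups did not overlap in 10 of the 17 rows, against 24.0% of all rows. Rows of 1 gene are not independent: all 5 Cp rows are among these 10, and Cp rows 2 to 5 are among the 7. By leading row, 3 of the 9 genes were lower and 0 were higher, against 3.09% and 0.672% of all genes. The median difference of the 17 rows was -0.28 and that of all rows 0.05. Of the 17 differences 13 were negative, among them all 5 Cp rows and 2 Tfr2 rows of -0.01 and -0.00.

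**Figure D1:**
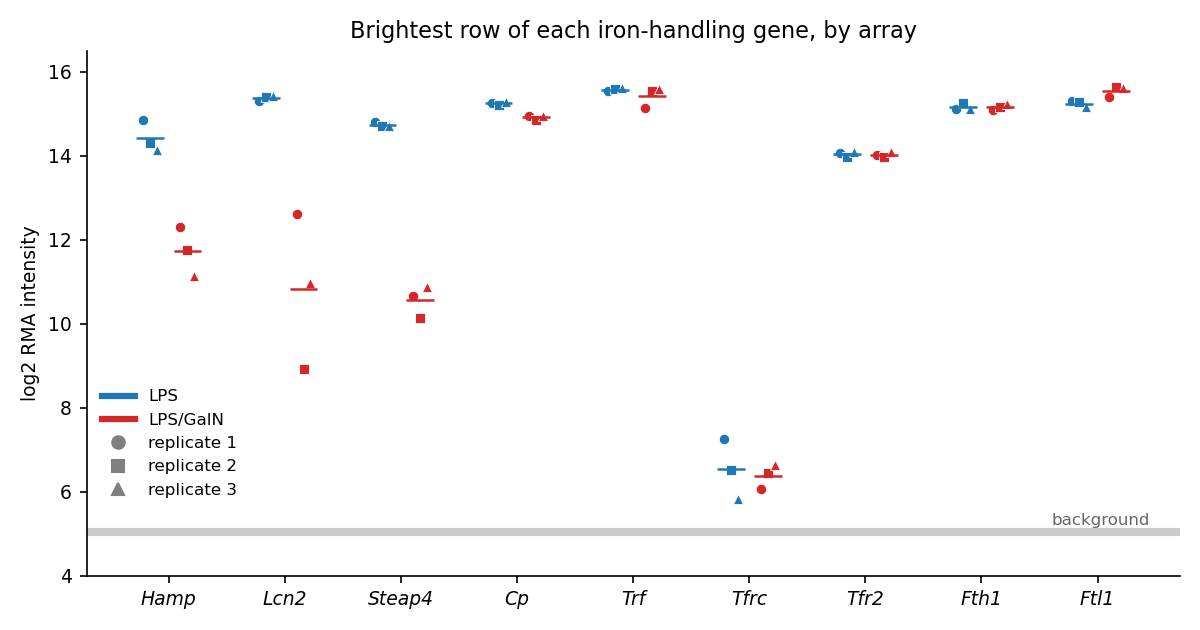
Log2 RMA intensity (vertical axis) of the leading row of each of the 9 measured genes on each array; colours are the treatments, marker shapes the replicates, short lines the group means of 3 arrays, and the grey band the background row. All LPS/GalN points of Hamp, Lcn2 and Steap4 lie below all LPS points, while the points of Trf, Tfrc, Tfr2 and Fth1 overlap between treatments.

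Hamp encodes hepcidin, and its row spans chr7:31727387-31729019 (build mm9, as for all rows). Its log2 intensity was 14.85, 14.31 and 14.14 on LPS replicates 1 to 3 and 12.31, 11.75 and 11.13 on LPS/GalN replicates 1 to 3. Every LPS/GalN array was below every LPS array, and the gap between the groups was wider than the range within either. The means were 14.43 ± 0.37 (SD, n = 3) and 11.73 ± 0.59, a difference of -2.70 (SE 0.35, 95% interval -3.50 to -1.90, adjusted p = 0.00454). With any 1 array left out the difference stayed between -2.99 and -2.40, and it was called in 6 of 6 such fits (adjusted p 0.00343 to 0.0252).

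Hamp2, a tandem copy of Hamp found in the mouse, did not share this difference. Its row read 11.21, 11.65 and 10.83 in LPS and 12.16, 12.22 and 11.70 in LPS/GalN. The LPS/GalN arrays were all above the LPS arrays, but the difference of 0.80 (95% interval 0.14 to 1.45) was not called (adjusted p = 0.196). The pair was then compared within each array, a comparison chosen after its values were seen. The log2 ratio of Hamp over Hamp2 was 3.64, 2.66 and 3.31 in LPS and 0.14, -0.46 and -0.57 in LPS/GalN, a change of -3.50. The exact two-sided permutation test over the 6 arrays gave p = 0.1, the smallest value that 3 against 3 arrays allow. As Hamp was lower and Hamp2 higher on every LPS/GalN array, this outcome was fixed beforehand and adds no support. The positions of the probes are not given, so how far the rows of these near-identical genes share signal was not tested; a shared signal would act on both rows.

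**Figure D2:**
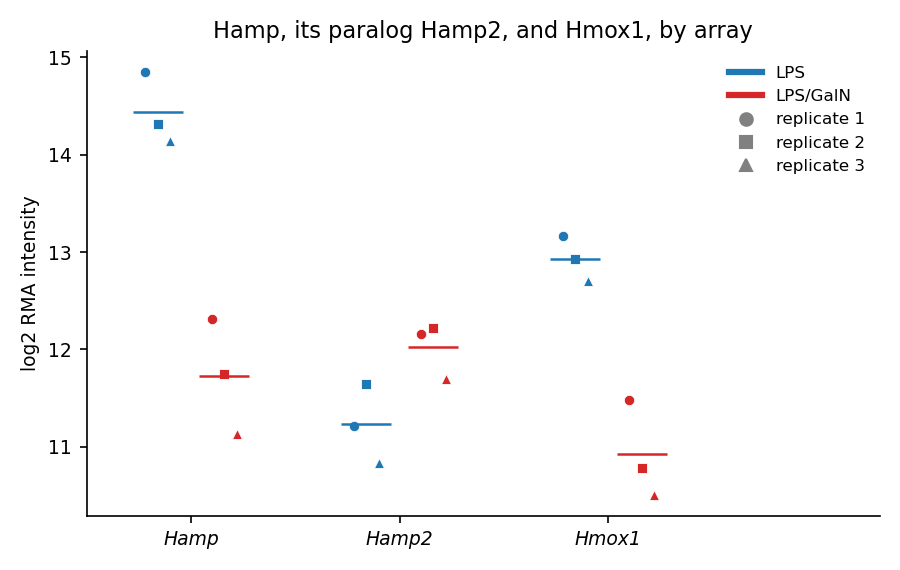
Log2 RMA intensity (vertical axis) of the rows of Hamp, Hamp2 and Hmox1 on each array, with colours for treatment, shapes for replicate and short lines for the means of 3 arrays. Hamp and Hmox1 are lower on every LPS/GalN array than on any LPS array, and Hamp2 is not. Hmox1 is shown as the row most like Hamp over these arrays.

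The rows most like Hamp over the 6 arrays were ranked by Pearson's r of log2 intensity among the 15192 rows that carry a gene name and are brighter on average than the median row. The arrays share their treatment, so r mostly reflects the gap between the groups, and 390 rows had r above 0.95. First among them was Hmox1, heme oxygenase, which breaks down heme and frees its iron (r = 0.996). Hmox1 read 13.16, 12.93 and 12.70 in LPS and 11.48, 10.78 and 10.51 in LPS/GalN. The next rows were adenylate cyclase 1, DEP domain containing 7, modulator recognition factor 2 and adrenomedullin (r = 0.994 to 0.995).

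Lcn2 encodes lipocalin 2, and its row spans chr2:32240184-32243259. Its log2 intensity was 15.30, 15.41 and 15.43 in LPS, close to the upper limit of the scale, and 12.61, 8.92 and 10.97 in LPS/GalN. The LPS arrays were nearly level, whereas the LPS/GalN arrays were spread widely, with replicate 2 lowest and replicate 1 highest. LPS/GalN replicates 2 and 3 carried the thymus markers, and without them the difference was -2.77. The means were 15.38 ± 0.072 and 10.83 ± 1.8 (SD, n = 3), a difference of -4.55 (SE 0.78, 95% interval -6.34 to -2.76, adjusted p = 0.0166). With 1 array left out, the difference of Lcn2 ran from -5.44 without LPS/GalN replicate 1 to -3.59 without LPS/GalN replicate 2, and it was called in 3 of 6 such fits. The fits without a call were those without LPS replicate 1 (-4.59, adjusted p = 0.0674), LPS replicate 2 (-4.53, 0.0674) and LPS/GalN replicate 3 (-4.62, 0.068), and it was also not called when the spread was modelled with an intensity trend and robust weights (adjusted p = 0.103).

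Neutrophils carry lipocalin 2 in their granules. The summed intensity of 8 neutrophil markers was 3131 to 4542 in LPS and 1309 to 2176 in LPS/GalN. By limma 2 of the 8 were lower (S100a8 and S100a9, the subunits of calprotectin), as were 3.09% of all genes. These 2 made up most of the sum on every array, so the sum largely repeats their fall. The other 6 were not called: Mmp8 differed by -1.75 (adjusted p = 0.0566), Camp by -0.75 (0.406), Retnlg by -0.65 (0.466) and Ngp by -0.54 (0.533). Elane and Mpo, which are transcribed mainly in neutrophil precursors, were near background on all arrays and differed by 0.10 (0.895) and -0.07 (0.932). Ltf, lactoferrin, which is stored in the same granules as lipocalin 2, read 6.37, 7.11 and 6.08 in LPS and 8.39, 4.99 and 6.04 in LPS/GalN and was not called (-0.05, adjusted p = 0.984). The part of neutrophils in the Lcn2 difference was not tested. The rows most like Lcn2 in pattern were SH2 domain containing 4A, potassium channel tetramerisation domain containing 6, proteasome subunit beta type 9, myotubularin related protein 4 and cytochrome c oxidase subunit VIIIc (r = 0.993 to 0.996).

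Steap4 spans chr5:7960471-7982213. Its log2 intensity was 14.80, 14.71 and 14.71 in LPS and 10.65, 10.13 and 10.88 in LPS/GalN. Both groups were tight and lay far apart. The means were 14.74 ± 0.054 and 10.55 ± 0.39 (SD, n = 3), and the difference of -4.19 (SE 0.26, 95% interval -4.77 to -3.60) had the smallest adjusted p of the 17 rows (0.000268). It was called in 6 of 6 fits with 1 array left out, between -4.35 and -3.97. The other measured members of its family did not pass the test: Steap1 differed by -0.91 (adjusted p = 0.0828), Steap2 by -0.14 (0.806) and Steap3, the ferrireductase of the transferrin cycle, by 0.49 (0.282). These are the leading rows. The second row of Steap3 differed by 0.93 and the 3 rows of Steap2 by -0.41 to 0.05, and none was called.

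The 5 rows of Cp, ceruloplasmin, gave unequal differences. They describe 5 cDNAs of the gene on chromosome 3 and are numbered by their mean intensity. Row 1 spans chr3:19857053-19892937 and is a complete coding sequence. It read 15.26, 15.22 and 15.27 in LPS and 14.95, 14.86 and 14.94 in LPS/GalN. The groups did not overlap, but both lay near the top of the scale, and the difference of -0.34 (SE 0.20, 95% interval -0.80 to 0.13) was not called (adjusted p = 0.445); with an intensity trend and robust weights it was (adjusted p = 0.0158).

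Cp row 2, a cDNA from a liver tumour library, covers the first part of the gene (chr3:19857053-19869337). It read 11.34, 10.27 and 10.84 in LPS and 8.85, 6.80 and 7.32 in LPS/GalN, a difference of -3.16 (SE 0.52, adjusted p = 0.0141). All LPS/GalN arrays were below all LPS arrays, and LPS/GalN replicate 2 was the lowest, as for Lcn2. LPS/GalN replicates 2 and 3, the arrays with thymus markers, were again below replicate 1. The call was lost without LPS replicate 1 (-2.90, adjusted p = 0.0668) and without LPS/GalN replicate 3 (adjusted p = 0.0686), and the difference was -3.76 without LPS/GalN replicate 1. Cp row 4, a cDNA from osteoclast-like cells, lies downstream of row 2 (chr3:19869775-19889065). It read 9.35, 7.98 and 8.78 in LPS and 5.81, 5.68 and 5.66 in LPS/GalN, a difference of -2.99 (SE 0.34, adjusted p = 0.00296) that was called in 6 of 6 fits with 1 array left out. Its LPS/GalN values were close to each other, and the background row of those arrays read 4.969 to 5.117 on the log2 scale. With an offset of 50 added to the intensities, the difference of row 4 was -2.20 (adjusted p = 0.00333).

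Rows 3 and 5 of Cp, cDNAs from testis and from neonatal cerebellum, extend furthest downstream (chr3:19857053-19908792 and chr3:19857053-19907609). Row 3 read 7.55, 7.46 and 7.86 in LPS and 6.60, 6.93 and 6.90 in LPS/GalN. Row 5 read 7.23, 6.97 and 7.35 in LPS and 6.26, 6.81 and 6.65 in LPS/GalN. The groups did not overlap in either row, but the differences of -0.82 (adjusted p = 0.111) and -0.61 (adjusted p = 0.249) were not called. Row 3 was called in the smaller deposited value table (adjusted p = 0.0318). The sign was thus negative in all 5 rows, and the size ran from -0.34 to -3.16. Within arrays, in ratios chosen after the values were seen, row 2 over row 1 changed by -2.82, row 4 over row 1 by -2.65 and row 3 over row 1 by -0.48 (exact two-sided permutation p = 0.1 each, the smallest possible here), and row 5 over row 1 changed by -0.27 (p = 0.2). The pairs were picked from the same values, so these p values add no support to the differences. Because row 1 is near the top of the scale, these ratios do not separate a compressed row 1 from an unequal change of transcript forms. Exons, introns and untranslated regions under the probes were not examined.

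**Figure D3:**
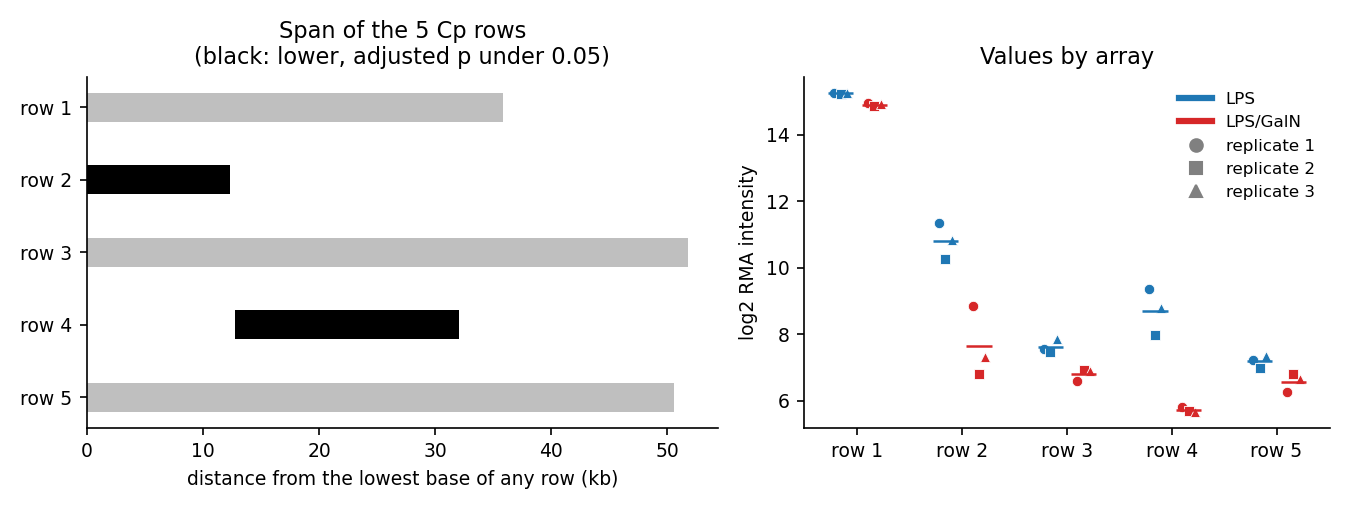
Left, the genomic span of the 5 Cp rows as distance in kb from their lowest base, in black where the row was lower in LPS/GalN (adjusted p under 0.05). Right, log2 RMA intensity of each row by array, with colours for treatment, shapes for replicate and lines for means of 3 arrays; rows 2 and 4 show the widest gaps (-3.16 and -2.99), and row 1 sits near log2 15 in both groups.

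Transferrin (Trf, chr9:103106330-103132616), the carrier of iron in plasma, read 15.53, 15.59 and 15.61 in LPS and 15.13, 15.54 and 15.58 in LPS/GalN. The groups overlapped, and the difference of -0.16 (95% interval -0.68 to 0.36) was not called (adjusted p = 0.767). LPS/GalN replicate 1 was the low array of its group. Both groups were above log2 15, so a change near the top of the scale could have been missed.

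Tfrc, the receptor that takes up transferrin into most cells, was dim. Its first row (chr16:32609106-32632876) read 7.25, 6.52 and 5.83 in LPS and 6.07, 6.45 and 6.63 in LPS/GalN, a difference of -0.15 (SE 0.37, adjusted p = 0.881). The LPS arrays spanned more than the LPS/GalN arrays did, and the highest of them, replicate 1, also carried the intestinal markers; LPS replicate 2 carried them too and was within the range of LPS/GalN. The difference was 0.21 without LPS replicate 1 (adjusted p = 0.826) and 0.01 without LPS/GalN replicate 1 (0.994), so its sign was not settled. The second row (chr16:32609106-32623827) differed by -0.28 (adjusted p = 0.764).

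Tfr2, a second receptor that hepatocytes use to sense transferrin iron upstream of Hamp, was bright and level. Its first row (chr5:138011096-138028709) differed by -0.01, with a 95% interval of -0.48 to 0.46 (adjusted p = 0.987), and its second (chr5:138011067-138028709) by -0.00 (adjusted p = 0.999). The third row (chr5:138012032-138028709) read 13.18, 13.03 and 13.06 in LPS and 13.35, 13.20 and 13.42 in LPS/GalN. There the groups did not overlap, but the difference of 0.23 (95% interval -0.25 to 0.71) was not called (adjusted p = 0.63). The interval of the first row excludes a change as large as that of Hamp.

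The ferritin subunits also did not pass the test. Fth1, the heavy chain with the ferroxidase centre (chr19:10057214-10059583), read 15.11, 15.25 and 15.11 in LPS and 15.09, 15.16 and 15.24 in LPS/GalN, a difference of 0.00 (95% interval -0.47 to 0.48, adjusted p = 0.994). Ftl1, the light chain, had a first row (chr7:52713313-52715256) of 15.30, 15.27 and 15.15 in LPS and 15.39, 15.64 and 15.62 in LPS/GalN. Its groups did not overlap, yet the difference of 0.31 (95% interval -0.17 to 0.79) was not called (adjusted p = 0.502); with an intensity trend and robust weights it was (adjusted p = 0.0404). The second Ftl1 row (chr7:52713313-52715188) differed by 0.12 (adjusted p = 0.811), and its groups overlapped. All 3 ferritin rows lay above log2 15 in both groups.

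**Figure D4:**
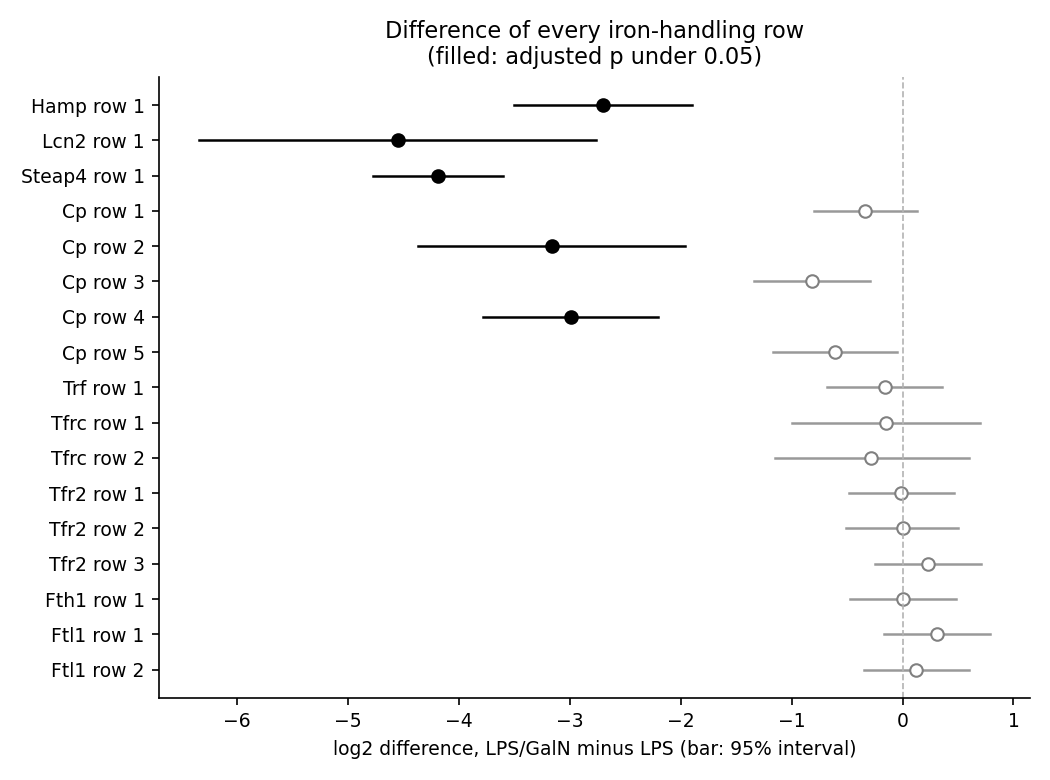
Log2 difference, LPS/GalN minus LPS (horizontal axis), of each of the 17 rows with its 95% interval from limma; filled points have an adjusted p under 0.05. The 5 filled points, Hamp, Lcn2, Steap4 and rows 2 and 4 of Cp, lie between -4.55 and -2.70, and the intervals of all Trf, Tfrc, Tfr2, Fth1 and Ftl1 rows include 0.

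Other genes of iron and heme metabolism were taken from 5 lists of 73 genes, of which 68 had a row. Of these, 9 were lower, 0 were higher and 59 were not called, with a median difference of 0.05. At an unadjusted p under 0.05, limma gave 15 lower and 7 higher of the 68, against 9.13% and 8.39% of all rows. At the adjusted threshold, counted with 1 leading row per gene, 3.09% of all genes were lower and 0.672% were higher.

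Of the genes that regulate hepcidin, 23 of 26 were measured. In this list 5 fell and 0 rose, and the median difference was 0.02. The BMP type I receptor Bmpr1a read 7.20, 7.08 and 7.37 in LPS and 5.22, 5.41 and 5.52 in LPS/GalN (-1.83, adjusted p = 0.00333; -1.11 with an offset of 50). Acvr1, another type I receptor of this pathway, read 9.10, 9.66 and 9.35 in LPS and 7.90, 6.54 and 7.10 in LPS/GalN (-2.19, adjusted p = 0.0137). Both had groups that did not overlap. Smad1, a transducer of BMP receptors, read 9.50, 9.88 and 9.26 in LPS and 7.57, 7.80 and 7.30 in LPS/GalN (-1.99, adjusted p = 0.00469), and its relative Smad5 read 9.39, 9.49 and 9.26 against 7.78, 7.66 and 8.31 (-1.47, adjusted p = 0.016). These are the leading rows. The second Smad1 row differed by -0.17 and was not called, and of 5 Smad5 rows 2 were lower, with differences from -1.73 to 0.37 over the 5; both rows of Acvr1 and both of Stat3 were lower. Stat3, which carries the interleukin 6 signal to the Hamp promoter, had linear intensities of 35288, 32839 and 37259 in LPS and 13873, 13015 and 13941 in LPS/GalN. Its log2 difference of -1.37 (adjusted p = 0.00901) is a fall of 2.58-fold, which may be compressed, as LPS lay near the top of the scale.

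Acvr1 was not called without LPS replicate 2 (-2.05, adjusted p = 0.0651) or LPS/GalN replicate 3 (-2.15, 0.0616), and Smad5 was not called without LPS replicate 1 (-1.46, 0.0703), LPS replicate 2 (-1.41, 0.0736) or LPS/GalN replicate 2 (-1.34, 0.0642). Id1 and Smad7, target genes of BMP signalling, were not called: Id1 differed by -0.58 (95% interval -1.63 to 0.48, adjusted p = 0.575) and Smad7 by 0.07 (-0.91 to 1.05, adjusted p = 0.958). Tmprss6, the protease that restrains hepcidin by cleaving hemojuvelin, read 11.88, 12.03 and 12.01 in LPS and 12.36, 12.34 and 12.70 in LPS/GalN (0.49, adjusted p = 0.299; 0.0382 with an intensity trend and robust weights). Il6, which encodes interleukin 6, was close to background in its leading row, with log2 values of 4.86 to 6.11, and differed by 0.02 (adjusted p = 0.985). Its 3 rows differed by -0.97 to 0.02, and none was called. Bmp6, Inhbb and Fam132b were not matched to a row.

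**Figure D5:**
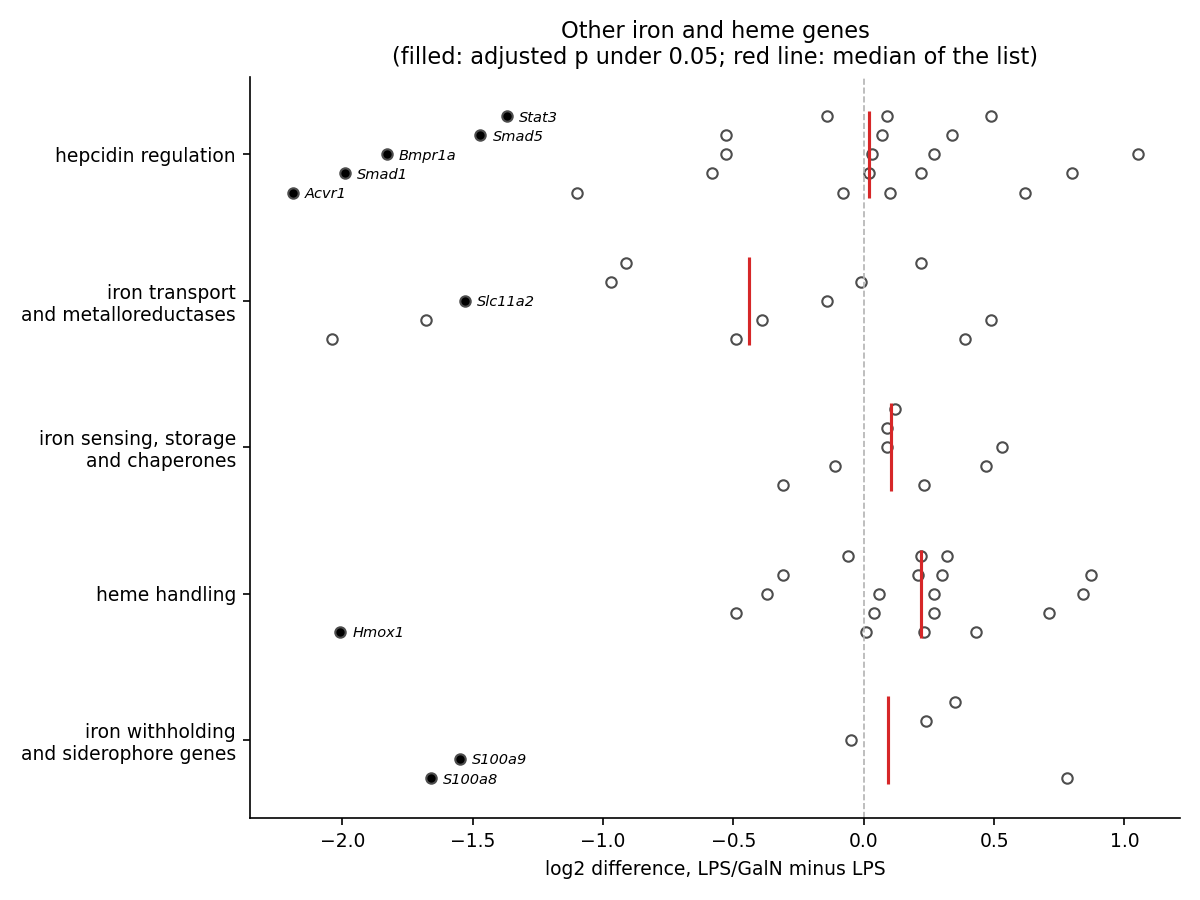
Log2 difference, LPS/GalN minus LPS (horizontal axis), of the leading row of each measured gene in the 5 lists; filled, named points have an adjusted p under 0.05 and red lines are list medians. The 9 filled points all lie below 0, while the list medians lie between -0.44 and 0.22.

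Among iron transporters and metalloreductases, 1 of 12 measured genes fell and 0 rose by leading row, with a median of -0.44. Beyond the leading rows, the second row of Slc11a2 was lower too (-2.08). Slc25a28 was not called in its leading row (-0.97, adjusted p = 0.0739). However, 1 of its 3 rows was lower, and the 3 rows differed by -1.78 to -0.58. Slc11a2, the divalent metal transporter that moves iron out of endosomes, read 12.28, 12.16 and 12.28 in LPS and 11.16, 10.50 and 10.45 in LPS/GalN (-1.53, adjusted p = 0.0156). It was not called without LPS replicate 1 (-1.51, adjusted p = 0.0704), LPS replicate 2 (-1.57, 0.0597), LPS/GalN replicate 2 (-1.43, 0.0655) or LPS/GalN replicate 3 (-1.40, 0.0609). Slc39a14, through which hepatocytes take up iron that is not bound to transferrin, read 8.86, 8.04 and 8.58 in LPS and 7.52, 5.83 and 6.02 in LPS/GalN. Its groups did not overlap, and its difference of -2.04 just missed the threshold (adjusted p = 0.0527). With 1 array left out, it passed only without LPS/GalN replicate 1 (-2.57, adjusted p = 0.00508). It passed with an offset of 50 (0.0336) and after centring the medians again (0.0466). It also passed with an intensity trend and robust weights (0.00466) and in the deposited value table (0.0294). It did not pass after quantile normalization again (0.0697) or with 1 row per gene (0.0551). Ferroportin (Slc40a1), the target of hepcidin, read 8.29, 7.96 and 8.31 in LPS and 8.13, 8.22 and 8.86 in LPS/GalN, groups that overlap (0.22, 95% interval -0.40 to 0.84, adjusted p = 0.739). Hepcidin acts on the ferroportin protein, which was not measured.

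Heme handling had 19 of 20 genes measured, of which 1 fell and 0 rose, with a median of 0.22. The gene that fell was Hmox1 (-2.01, SE 0.30, adjusted p = 0.0089). Hemopexin (Hpx), the plasma carrier of heme, had linear intensities of 46114, 39185 and 44986 in LPS and 35497, 32813 and 36880 in LPS/GalN, near the top of the scale, and was not called (log2 difference -0.31, adjusted p = 0.508; 0.0464 with an intensity trend and robust weights). Hp, haptoglobin, was not matched to a row. All 8 genes of iron sensing, storage and chaperoning were measured, 0 were called in either direction, and their median was 0.10 (1 was higher at an unadjusted p under 0.05, as were 8.39% of all rows); this list holds the iron regulatory proteins Aco1 and Ireb2.

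Of 6 genes of iron withholding and siderophores, 2 fell and 0 rose, with a median of 0.10. S100a8 read 9.45, 10.03 and 10.03 in LPS and 8.43, 7.88 and 8.23 in LPS/GalN (-1.66, adjusted p = 0.0127), and S100a9 read 10.65, 11.04 and 11.17 against 9.72, 9.20 and 9.29 (-1.55, adjusted p = 0.0136). Both calls were lost without LPS replicate 2 (adjusted p = 0.063 and 0.0651) and without LPS/GalN replicate 2 (0.0521 and 0.0591), and that of S100a9 also without LPS/GalN replicate 3 (0.057). Slc22a17, a receptor for lipocalin 2, read 4.64 to 6.09 over the arrays, close to background, and was not called (0.24, adjusted p = 0.803).

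Macrophages release iron under the control of hepcidin, and markers of Kupffer cells, the macrophages of the liver, did not fall with Hamp. The summed intensity of 6 Kupffer cell markers was 7224 to 9725 in LPS and 13455 to 15490 in LPS/GalN, and 0 of the 6 was called by limma (4 were higher at an unadjusted p under 0.05, as were 8.39% of all rows). That of 5 measured markers of sinusoidal endothelial cells, which supply BMP ligands to hepatocytes, was 2676 to 4133 in LPS and 5243 to 5556 in LPS/GalN. By limma 1 of the 5 was higher, as were 0.672% of all genes, and 2 were higher at an unadjusted p under 0.05. The gene called was Pecam1 (1.39, adjusted p = 0.0134), whose second row differed by 1.05 and was not called. Summed erythroid markers were 30329 to 39804 in LPS and 36114 to 53520 in LPS/GalN, and stellate cell markers 1543 to 1610 and 1572 to 1746. The part of these cells in the differences of the iron genes was not tested.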

How the data were processed

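For each array the authors deposited RMA intensity values on the linear scale, per the file headers; RMA corrects background, normalizes between arrays and joins the probes of a target (3 in 44155 rows, 2 in 9, 1 in 6). The RMA version is not given in the sources used here. A deposited value table of the series holds 18076 rows, those at 50 or more on every array, and served as an alternative. Between-array normalization would remove a global change of RNA.

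Intensities were taken to log2 and compared with limma 3.58.1 (lmFit, then eBayes without trend or robust weights; 4.09 prior degrees of freedom) in R 4.3.3, two-sided, over all 44170 rows, with group as the only term. Groups came from the labelled treatment and replicate numbers from the titles. No filter on low values was used. Genes were matched by full gene name in the row descriptions. The members, lists, motifs and the limit of log2 15 were chosen with earlier results of these data known.

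Every member gene is named. Of the other lists, genes past the threshold are named, at most 6 per list. Also named are Slc40a1, Tmprss6, Bmp6, Smad7, Id1, Il6, Stat3, Slc39a14, Hmox1, Hp and Hpx, whatever their result. Hamp2, the Steap relatives, Ltf, Slc22a17 and Slc25a28 were chosen after their values were seen. The fit was tested on simulated data. Only 6 arrays limit the precision. The labels do not say whether separate treatments were done on separate days. Ratios within arrays were tested by exact permutation.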

Additional observations from a re-analysis of the deposited data

How the results depend on the processing

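Of the 17 rows, 5 were lower and 0 higher. The count lower was 3 with 1 row per gene (9 rows), 6 in the deposited value table (16 rows), 3 to 5 with 1 array left out (3 without LPS replicate 1 and without LPS/GalN replicate 3), 0 without LPS replicates 1 and 2, and 2 without LPS/GalN replicates 2 and 3. The count higher was 1, Ftl1, with an intensity trend and robust weights. The number of rows called in the whole table was 1671; it was 2534 with an offset of 50, 3094 with trend and robust weights, 884 to 2136 with 1 array left out, and 0 and 376 with the respective pairs left out, where 1 array stands against 3.

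Sign changes occurred only in genes that were not called. With 1 array left out, the log2 difference of Tfrc ran from -0.50 to 0.21, of Tfr2 from -0.05 to 0.01 and of its second row from -0.07 to 0.10, and of Fth1 from -0.03 to 0.05; Fth1 was -0.03 after centring the medians again. Smad7 ran from -0.34 to 0.51, Id1 from -0.99 to -0.14, Il6 from -0.34 to 0.24 and Slc40a1 from -0.01 to 0.35; Il6 was -0.02 after centring and -0.01 after quantile normalization again. Without LPS replicates 1 and 2, Tfrc was 0.56, Id1 0.24 and Il6 -0.29. Without LPS/GalN replicates 2 and 3, the second Tfr2 row was 0.04, Fth1 -0.07, Id1 0.01, Il6 -0.41 and Slc40a1 -0.06.

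With the replicate number as a block, 5 rows were lower and 0 higher, and 1174 rows of the table were called. Same-numbered arrays did not deviate together (r = 0.0019, -0.0043 and 0.0195 across rows). Such values over all rows gave no sign of pairing by number, but they cannot exclude it for single rows. Under the block Slc39a14 passed (adjusted p = 0.0326), while Acvr1 (0.0524), Smad5 (0.0584), S100a8 (0.0533) and S100a9 (0.0584) did not. The cause of these changes was not tested.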

Other observations

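Heph, hephaestin, the ferroxidase with which gut cells export iron, read 7.90 and 8.62 on LPS replicates 1 and 2, the arrays with intestinal markers, and 4.96 on LPS replicate 3. In LPS/GalN it read 6.12, 5.39 and 4.93, and it was not called (-1.68, adjusted p = 0.36). The iron transporter of phagosomes Slc11a1 had means of 7.42 ± 0.15 (SD, n = 3) in LPS and 8.20 ± 0.21 in LPS/GalN (0.78, limma adjusted p = 0.118), and the heme transporter Slc48a1 read 7.76, 8.24 and 8.33 against 8.93, 9.12 and 8.90 (0.87, adjusted p = 0.104). In both genes every LPS/GalN array was above every LPS array, and neither was called. These 3 genes were chosen after their values were seen.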
